A study of Mus musculus with 6 samples.

Results

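The genes described here are 48 interferon-stimulated genes, chosen as the rows of the deposited gene table whose symbol is on a fixed list of genes that interferons switch on in many cell types. Of the 48, 46 were in the table of 16244 genes and 41 had a mean of at least 10 normalized reads over the 6 libraries. The 5 below that level (Rsad2, Rtp4, Oasl2, Oas2 and Ifi44) are described apart from the rest, and Mx1 and Mx2 are not analysed here.

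RNA-seq compared Th17 cells from WT mice with Th17 cells from knock-in mice that carry the N275D change in RORγt, the transcription factor that sets the Th17 fate (written RORγtN275D below; the labels give the genotype as Mut). Each genotype had 3 libraries, made from naive splenic CD4+ T cells after 3 days of culture towards the pathogenic Th17 state with IL-6, IL-1β and IL-23. The knock-in lies on a C57BL/6 background, and WT mice were C57BL/6NJ. By the methods, the pathogenic medium was the conventional Th17 medium with IL-23 and IL-1β added, so that it also held TGF-β and antibodies that neutralise IL-4 and IFN-γ, whereas the series text names the 3 cytokines above alone. No source used here says that interferon was added to either genotype. The mice were young adults unless noted, with no age per sample. The methods speak of biologically independent samples in general, but no source used here says whether the 3 libraries of a genotype came from separate mice or cultures, and p-values then measure the spread between these libraries.

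Type I interferons bind a receptor made of IFNAR1 and IFNAR2, and the kinases JAK1 and TYK2 then activate STAT2, which joins IRF9 in a complex that binds the interferon-stimulated response element (ISRE) in promoters. IFN-γ binds IFNGR1 and IFNGR2, and the kinases JAK1 and JAK2 pass its signal to gamma-activated sites (GAS) in promoters. The genes switched on by these routes code for antiviral effectors, for sensors of foreign nucleic acid, for GTPases that attack pathogen vacuoles, and for parts of the pathway itself.

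Libraries held 17659035 to 18510878 reads on genes, and values are the authors' normalized reads, that is, reads multiplied by 1 factor per library (0.982 to 1.009). Genotypes were compared with limma on log2(normalized reads + 1) across the 11908 genes whose mean reached 10, and a gene was called at a Benjamini-Hochberg adjusted p under 0.05. A log2 fold change is RORγtN275D minus WT on that scale, and the value after ± is its standard error unless SD is named. The cells carried T cell and Th17 transcripts in all libraries, with Cd4 between 7575 and 9520 normalized reads and Il17a between 27166 and 32673. WT replicate 3 stood farthest from its group, and results that change without a library are given with the value without it.

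The listed interferon-stimulated genes were higher on balance in RORγtN275D cells, but the list was chosen with earlier results of these data known. Among 66 further such genes outside the list, described below, 24.2% rose and 27.3% fell. Of the 41 members tested, 27 rose (65.9%), 2 fell (4.88%) and 12 were not called. Of all 11908 genes, 24.7% rose and 26.1% fell. Their median log2 fold change was 0.24, with a range from -0.60 to 2.14, whereas the median of all genes tested was -0.0026. The sign was positive for 36 members and negative for 5. In 29 members every RORγtN275D library lay above every WT library, in 2 every RORγtN275D library lay below, and in 10 the genotypes overlapped. Among all genes tested, 28.1% lay wholly above and 29.6% wholly below. Leaving out 1 library at a time gave between 21 and 27 members that rose and 1 or 2 that fell, with the lowest count of risen members reached without RORγtN275D replicate 1.

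Summed over the 46 members in the table, WT libraries held 1150, 1157 and 1117 CPM (reads scaled to equal depth), and RORγtN275D libraries held 1345, 1361 and 1363. All RORγtN275D libraries were above all WT libraries in this sum, and the 3 values of each genotype lay close to each other. The median deviation of the tested members from the WT mean was 0.036, -0.0014 and 0.0042 (log2) in WT libraries and 0.26, 0.24 and 0.30 in RORγtN275D libraries, above every WT library in each case. The median SD within a genotype was 0.083 (log2) over the members and 0.078 over all genes tested.

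A rise at least 2-fold was called for 6 members, namely Ifit1, Ifit3, Oasl1, Isg15, Usp18 and Cmpk2, and no member fell 2-fold. Over all genes tested 2.73% rose and 0.857% fell to that extent. All 6 belonged to the 12 members with a mean between 10 and 100 reads, whose median log2 fold change was 1.00, with 9 that rose and 1 that fell. The 2327 genes of the table at that level had a median of 0.18, and 8.85% of them were called 2-fold higher. Ifit3 (mean 7.63 in WT and 26.2 in RORγtN275D cells) and Usp18 (9.03 and 19.3) reached the mean of 10 only through the RORγtN275D libraries. Changes were smaller at higher levels, with a median of 0.27 over the 13 members between 100 and 500 reads (8 rose and 0 fell) and of 0.17 over the 16 members at 500 or more (10 rose and 1 fell). All genes of these 2 levels had medians of 0.052 and -0.051. Of all genes, 25.9% were called higher between 10 and 100 reads, 30.1% between 100 and 500 and 21.7% at 500 or more.

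**Figure D1:**
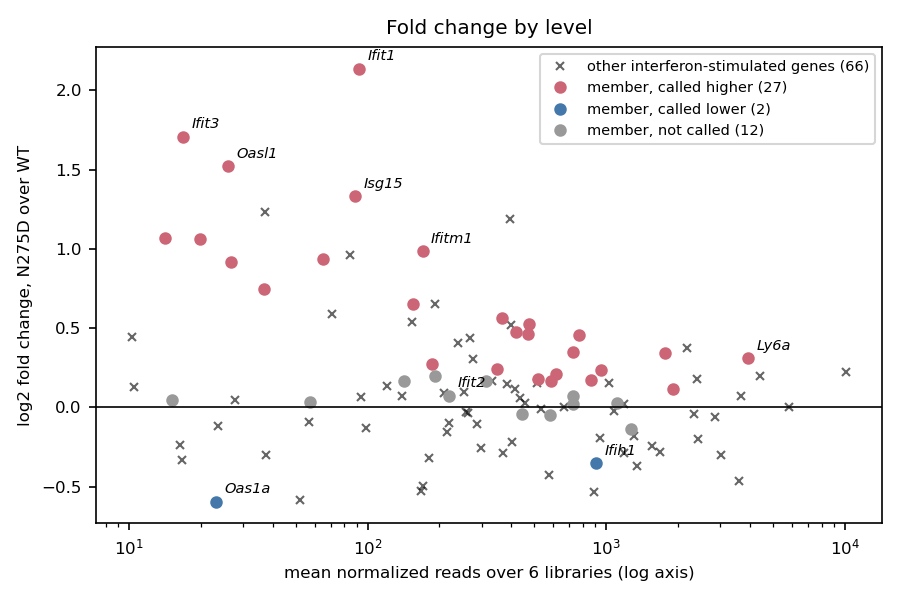
Mean normalized reads over the 6 libraries (x, log axis) against the log2 fold change of RORγtN275D over WT (y) for the 41 tested members (circles, coloured by call) and for 66 other interferon-stimulated genes that are not members (crosses). The members at the top, Ifit1 with 2.14 and Ifit3 with 1.71, lie below 100 reads, and the members above 500 reads lie between -0.35 and 0.45.

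In terms of reads gained, which grow with transcript length, other members led. The summed mean of the members was 20680 normalized reads in WT and 23988 in RORγtN275D cells, a net gain of 3308 reads. Ly6a, which codes for the surface antigen Sca-1 on activated T cells, supplied 25.3% of that gain, Samhd1 12.6% and Eif2ak2 7.22%. The 6 members called at 2-fold supplied 7.94% of the gained reads together. On a per-length scale (RPKM, reads divided by exon length and depth) Ly6a was also the highest member, at 193 in WT and 245 in RORγtN275D cells, followed by Ifitm2 with 53.9 and 70.4 and by Bst2 with 50.2 and 52.0. The gain per length was 51.8 RPKM for Ly6a, 16.5 for Ifitm2, 5.90 for Ifitm1, 5.86 for Isg15, 4.67 for Samhd1 and 3.33 for Eif2ak2. Ifit1, the tested member with the greatest fold change, stood at 0.699 RPKM in WT and 3.22 in RORγtN275D cells.

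**Figure D2:**
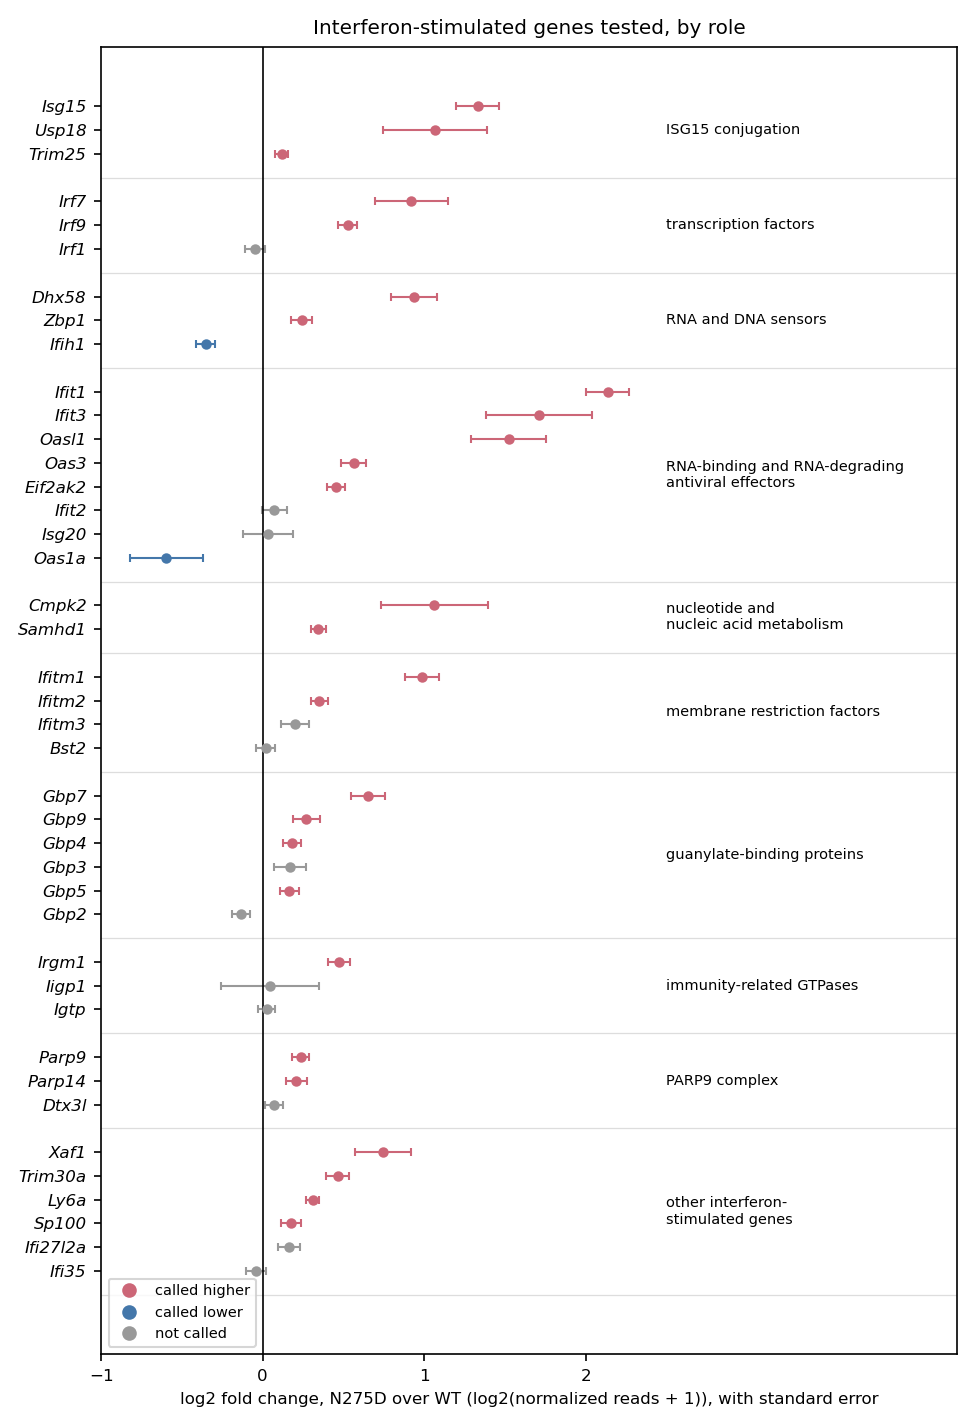
Log2 fold change of RORγtN275D over WT with its standard error (x) for each of the 41 tested members (y), grouped by role and coloured by call. Each role group holds at least 1 member called higher, and Ifih1 and Oas1a are the 2 members called lower.

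All 3 members of the ISG15 conjugation system rose. Isg15, the ubiquitin-like protein that is attached to other proteins after interferon, read 55.5, 44.4 and 50.1 in WT libraries and 127, 140 and 115 in RORγtN275D libraries. Its RORγtN275D values were all more than double any WT value, with a log2 fold change of 1.33 ± 0.13 (2.52-fold, adjusted p = 5.09e-07). Usp18, the protease that removes ISG15 and also restrains the type I interferon receptor, read 13.1, 8.07 and 5.89 in WT and 22.0, 16.1 and 19.8 in RORγtN275D cells. The groups did not overlap but lay close, with a log2 fold change of 1.07 ± 0.32 (adjusted p = 0.0108), and the call was lost without RORγtN275D replicate 1 (adjusted p = 0.0523). Trim25, a ubiquitin ligase that is modified by and transfers ISG15, read 1817, 1842 and 1828 in WT and 2009, 2033 and 1915 in RORγtN275D cells. Its change was small, 0.12 ± 0.04 (adjusted p = 0.0264), and the adjusted p was 0.0695 without WT replicate 1, 0.0946 without RORγtN275D replicate 1 and 0.125 without RORγtN275D replicate 2.

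Of the 3 transcription factors, 2 rose. Irf7, the factor that amplifies type I interferon production, read 22.2, 14.1 and 18.7 in WT and 34.9, 40.1 and 30.6 in RORγtN275D cells, without overlap (0.92 ± 0.22, adjusted p = 0.00286). Irf9, the DNA-binding partner of STAT2, read 385, 399 and 380 in WT and 572, 542 and 564 in RORγtN275D cells. Each genotype was tight for Irf9, and the difference of 0.53 ± 0.06 (1.44-fold, adjusted p = 2.35e-06) was many times the spread. Irf1, the factor most tied to IFN-γ, read 548, 632 and 591 in WT and 563, 593 and 558 in RORγtN275D cells. The groups overlapped and Irf1 was not called (-0.05 ± 0.06, adjusted p = 0.565).

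The 3 nucleic acid sensors moved in opposite directions. Dhx58, which codes for LGP2, a helicase that modulates RNA sensing, read 45.4, 39.3 and 48.1 in WT and 76.9, 94.3 and 85.9 in RORγtN275D cells. Ifih1, which codes for MDA5, the helicase that detects long double-stranded RNA, read 1022, 1091 and 934 in WT and 806, 802 and 775 in RORγtN275D cells. Neither gene overlapped between genotypes, and Dhx58 rose (0.94 ± 0.14, adjusted p = 5.14e-05) where Ifih1 fell (-0.35 ± 0.06, adjusted p = 0.000104). Zbp1, a sensor of Z-form nucleic acid, rose by 0.24 (adjusted p = 0.00565).

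Antiviral effectors that bind or degrade RNA included the widest range of changes. Of 8 tested members, 5 rose, 1 fell and 2 were not called, with a median of 0.51. Ifit1, which binds foreign RNA by its cap, read 36.3, 29.3 and 35.4 in WT and 141, 151 and 161 in RORγtN275D cells. This was a 4.40-fold rise (2.14 ± 0.13, adjusted p = 2.17e-09), and the lowest RORγtN275D library lay far above the highest WT library. Ifit3, a further RNA-binding family member, read 6.06, 5.04 and 11.8 in WT and 19.97, 26.1 and 32.6 in RORγtN275D cells, a rise of 1.71 ± 0.33 (adjusted p = 0.000417). Ifit2, of the same family, read 212, 221 and 207 in WT and 232, 219 and 223 in RORγtN275D cells. The Ifit2 groups overlapped and the gene was not called (0.07 ± 0.08, adjusted p = 0.4547).

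The oligoadenylate synthetase family, whose active members make the signal that turns on RNase L, also split. Oas3 read 268, 288 and 326 in WT and 426, 456 and 422 in RORγtN275D cells. Oasl1, a family member without that enzymatic activity, read 15.1, 14.1 and 9.82 in WT and 40.9, 35.1 and 40.5 in RORγtN275D cells. Neither overlapped, and the rises were 0.56 ± 0.08 for Oas3 (adjusted p = 1.64e-05) and 1.52 ± 0.23 for Oasl1 (adjusted p = 4.72e-05). Oas1a read 26.2, 26.2 and 31.4 in WT and 22.0, 16.1 and 16.8 in RORγtN275D cells, lower without overlap (-0.60 ± 0.22, adjusted p = 0.0357). That call was weak, since adjusted p was 0.164 with DESeq2 and lay above 0.05 when any library but RORγtN275D replicate 1 was left out, with 0.0581, 0.0562 and 0.109 without WT replicates 1, 2 and 3, 0.107 without RORγtN275D replicate 2 and 0.0902 without RORγtN275D replicate 3. Among the rest of the group, Eif2ak2, which codes for the double-stranded RNA-activated kinase PKR, read 656, 675 and 609 in WT and 870, 890 and 897 in RORγtN275D cells (0.45 ± 0.05, adjusted p = 4.37e-06). Isg20, an RNA exonuclease, overlapped between genotypes (0.03 ± 0.16, adjusted p = 0.874).

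**Figure D3:**
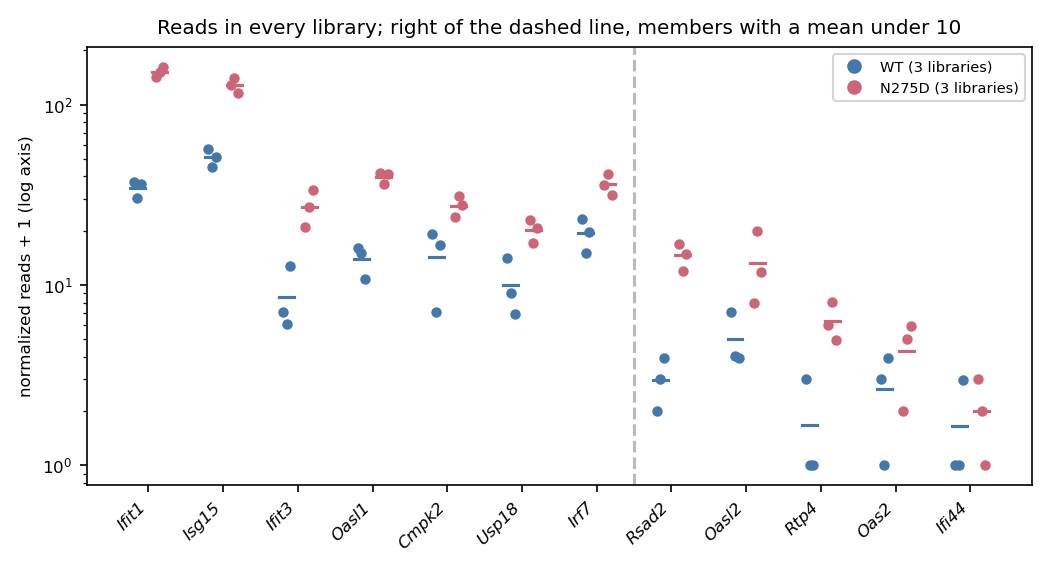
Normalized reads + 1 on a log axis (y) in each of the 3 WT and 3 RORγtN275D libraries (points, with the mean as a bar) for the 6 members called at 2-fold, Irf7 and the 5 members with a mean under 10 (x). The genotypes do not overlap in Rsad2, Oasl2 and Rtp4, and they overlap in Oas2 and Ifi44.

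Of the 5 members with a mean under 10 reads, 3 were higher without overlap, against 7.68% of the 4336 genes at that level (4.59% were lower without overlap). In the fit described next, 4.8% of those genes were called higher. They were fitted together with all 16244 genes of the table, and their ratios carry exact binomial 95% intervals over the summed reads of each genotype, which cover counting error alone. Rsad2, which codes for viperin, an enzyme that makes a chain-terminating nucleotide, read 1.01, 2.02 and 2.95 in WT and 15.97, 11.04 and 13.8 in RORγtN275D cells. With 6 reads in WT and 41 in RORγtN275D cells the ratio was 6.81 (2.87 to 19.6, adjusted p = 0.000296). Rtp4, a chaperone of membrane receptors, was at 0 in 2 of the 3 WT libraries and read 2.02 in the other, against 4.99, 7.02 and 3.95 in RORγtN275D cells (2 and 16 reads, ratio 7.97, 1.87 to 71.5, adjusted p = 0.00490). Oasl2 read 6.06, 3.03 and 2.95 in WT and 6.99, 19.1 and 10.9 in RORγtN275D cells (ratio 3.07, 1.57 to 6.47, adjusted p = 0.0185). In all 3 genes the WT libraries held at most 6 reads each, so the sizes of these ratios are poorly fixed. Oas2 read 2.02, 0 and 2.95 in WT and 1.00, 4.01 and 4.94 in RORγtN275D cells, and Ifi44 read 0, 0 and 1.96 in WT and 2.0, 1.0 and 0 in RORγtN275D cells. A difference was not detectable at this depth for Oas2 (ratio 1.99, 0.621 to 7.43) or Ifi44 (ratio 1.49, 0.171 to 17.9).

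Both tested genes of nucleotide metabolism rose. Samhd1, which breaks down deoxynucleotides, read 1639, 1538 and 1490 in WT and 1937, 1969 and 2016 in RORγtN275D cells (0.34 ± 0.05, adjusted p = 1.26e-05). Cmpk2, a mitochondrial nucleotide kinase whose gene lies next to Rsad2 on chromosome 12, read 18.2, 6.05 and 15.7 in WT and 23.0, 30.1 and 26.7 in RORγtN275D cells. The genotypes did not overlap (1.06 ± 0.33, adjusted p = 0.0131), but the low WT replicate 2 weighed on the size, which was 0.62 without it (adjusted p = 0.0591). Without RORγtN275D replicate 2 it was 0.97 (adjusted p = 0.0549).

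Among the 4 membrane restriction factors, 2 rose. Ifitm1, which blocks viral fusion at the cell surface, read 95.9, 128 and 119 in WT and 226, 225 and 227 in RORγtN275D cells. The 3 RORγtN275D libraries were nearly equal and well above WT (1.98-fold, 0.99 ± 0.11, adjusted p = 1.27e-06). Ifitm2, its endosomal relative, read 617, 634 and 667 in WT and 794, 837 and 816 in RORγtN275D cells (0.35 ± 0.05, adjusted p = 5.45e-05). Ifitm3 lay wholly higher but was not called (0.20 ± 0.09, adjusted p = 0.0656), except without WT replicate 3 (0.25, adjusted p = 0.0309). Bst2, which codes for tetherin, overlapped between genotypes (0.02 ± 0.06, adjusted p = 0.808).

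The guanylate-binding proteins, GTPases that gather on pathogen vacuoles and are strongly driven by IFN-γ, had a median of 0.17 over 6 members, with 4 that rose, 0 that fell and 2 not called. Gbp7 read 124, 134 and 102 in WT and 180, 196 and 190 in RORγtN275D cells, the main rise of the family (0.65 ± 0.11, adjusted p = 9.98e-05). Gbp2, the most abundant of the 6 per exon length (29.1 RPKM in WT and 27.1 in RORγtN275D cells), read 1426, 1340 and 1219 in WT and 1211, 1240 and 1167 in RORγtN275D cells. The Gbp2 groups overlapped and it was not called (-0.14 ± 0.06, adjusted p = 0.0511), but without WT replicate 3 it was (-0.20, adjusted p = 0.000666). Gbp9 (0.27, adjusted p = 0.0148), Gbp4 (0.18, adjusted p = 0.0136) and Gbp5 (0.16, adjusted p = 0.0269) were called for small rises. These 3 calls did not stand without single libraries. Adjusted p reached 0.0560 for Gbp9 without WT replicate 1, 0.0523 without RORγtN275D replicate 1 and 0.0592 without RORγtN275D replicate 3. For Gbp4 it was 0.0536 without RORγtN275D replicate 1. For Gbp5 it was 0.0689 without WT replicate 3, 0.105 without RORγtN275D replicate 1 and 0.0657 without RORγtN275D replicate 3. With DESeq2 adjusted p was 0.0716, 0.0502 and 0.0709 for Gbp9, Gbp4 and Gbp5. Gbp3 was not called (0.17, adjusted p = 0.172).

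Of the 3 immunity-related GTPases, which act on the same vacuoles, Irgm1 rose, and it read 375, 341 and 336 in WT and 486, 466 and 510 in RORγtN275D cells (0.47 ± 0.07, adjusted p = 2.50e-05). Igtp, which codes for IRGM3, read 1171, 1064 and 1073 in WT and 1104, 1143 and 1114 in RORγtN275D cells, and Iigp1 lay between 9.98 and 20.1 in all libraries. Both overlapped between genotypes and were not called (adjusted p = 0.712 and 0.913).

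PARP9 and DTX3L form a ubiquitin ligase complex on chromatin, and PARP14 is a related ADP-ribosyl transferase. Parp9 read 911, 872 and 831 in WT and 987, 1024 and 1064 in RORγtN275D cells (0.23 ± 0.05, adjusted p = 0.00152). Parp14 read 557, 634 and 526 in WT and 668, 635 and 677 in RORγtN275D cells, so that its groups nearly touched (0.21 ± 0.07, adjusted p = 0.0165). The Parp14 call was lost without WT replicate 1 (adjusted p = 0.0557), RORγtN275D replicate 1 (0.0568) or RORγtN275D replicate 3 (0.0684). Dtx3l was not called (0.07, adjusted p = 0.315).

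The remaining members had mixed roles, and 4 of 6 tested rose. Xaf1, a pro-apoptotic factor, read 25.2, 28.2 and 28.5 in WT and 49.9, 48.2 and 41.5 in RORγtN275D cells (0.74 ± 0.17, adjusted p = 0.00215). Ly6a read 3338, 3619 and 3563 in WT and 4283, 4379 and 4369 in RORγtN275D cells (0.31 ± 0.04, adjusted p = 8.39e-06). Trim30a, a brake on Toll-like receptor signalling, read 408, 423 and 351 in WT and 531, 551 and 543 in RORγtN275D cells (0.46 ± 0.07, adjusted p = 5.40e-05). All 3 were without overlap. Sp100, a nuclear body protein, was called at 0.18 (adjusted p = 0.0236), but not without WT replicate 1 (0.13, adjusted p = 0.110) or RORγtN275D replicate 3 (0.12, adjusted p = 0.155). Ifi27l2a lay wholly higher without a call (0.17, adjusted p = 0.0532), though edgeR called it (adjusted p = 0.0418), and Ifi35 overlapped (-0.04, adjusted p = 0.623).

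Relatives and partners among the members are set side by side next, as a description with no test, since the pairs were chosen after their values were seen. Ifit1 (chromosome 19, 34640889 to 34650009), Ifit2 (34550550 to 34576534) and Ifit3 (34583119 to 34588982) lie within a single cluster (coordinates in mm10). The log2 ratio of Ifit1 to Ifit2 within a library, of normalized reads + 1, was -2.51, -2.87 and -2.52 in WT and -0.71, -0.53 and -0.47 in RORγtN275D cells, a shift of 2.06. Ifit3 over Ifit2 shifted by 1.64, whereas Ifit1 over Ifit3 shifted by 0.43 and overlapped between genotypes. In the other pairs Oas3 over Oas1a shifted by 1.16, Gbp7 over Gbp2 by 0.79, Ifitm1 over Ifitm2 by 0.64, Irgm1 over Igtp by 0.45 and Parp9 over Dtx3l by 0.16. The ratio of Dhx58 to Ifih1, sensors from different chromosomes, shifted by 1.29. Several of these genes have near-identical relatives in the mouse genome (Ifit3, Oas1a, the guanylate-binding proteins, Ifi27l2a), and how reads shared between copies were assigned is not given in the sources used here, so their levels are less certain.

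**Figure D4:**
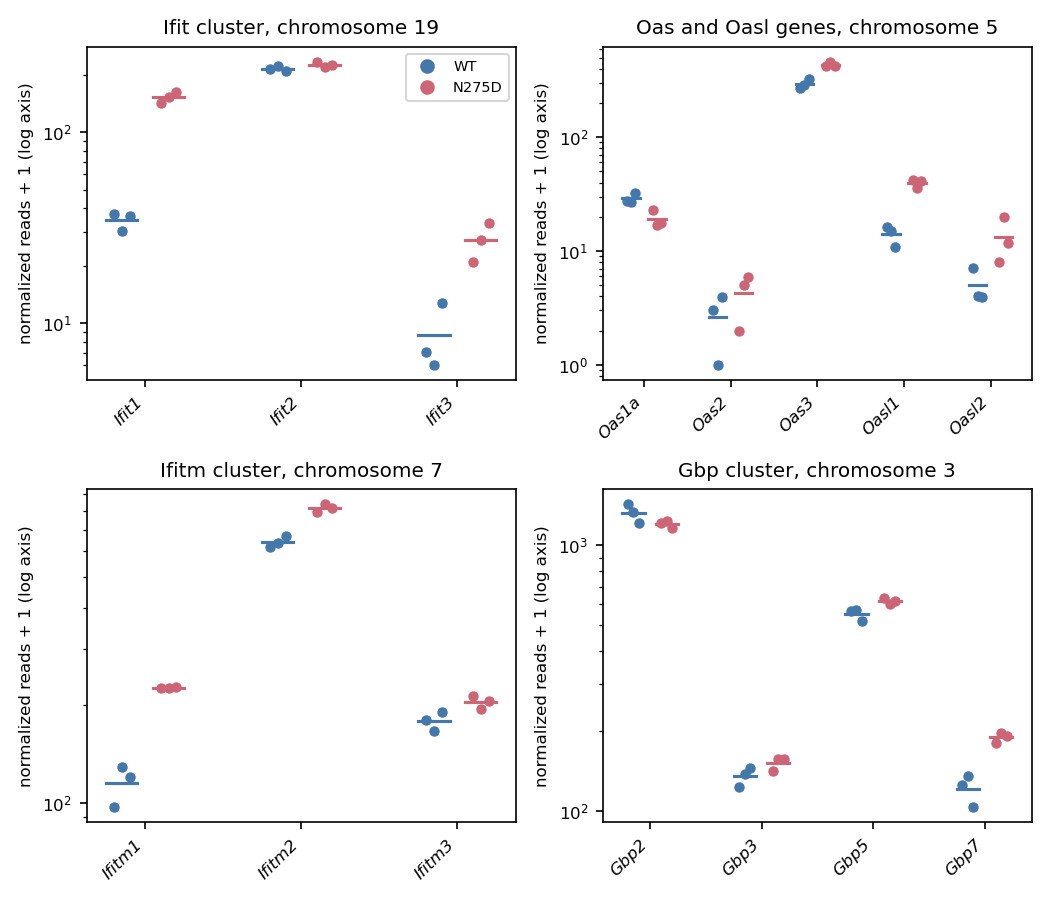
Normalized reads + 1 on a log axis (y) in each of the 3 WT and 3 RORγtN275D libraries (points, with the mean as a bar) for members of 4 gene families (x). The genes of each panel lie on a single chromosome, and Gbp4 and Gbp9, on chromosome 5, are not shown. Ifit1 and Ifit3 are apart between genotypes while Ifit2 overlaps, and Gbp7 is apart while Gbp2 and Gbp3 overlap.

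The promoters of some of these genes are printed as a description, and whether ISRE letters bear on the responses was not tested. Windows of 250 bases before to 50 after each gene start came from RefSeq (GRCm38.p6), and 34 of the 48 members had a window. The ISRE was searched as GAAA, any 2 bases, then GAAA, and the GAS as TTCNNNGAA, on both strands. ISRE letters were found in 18 of the 34 members (52.9%) and in 3.99% of all 27025 genes with a window (3.44% of 32851 windows). GAS letters were found in 12 of the 34 (35.3%) and in 9.55% of all genes with a window. The 160 bases before a RefSeq transcript start are printed 5′ to 3′ in the direction of the gene, with the ISRE letters of either strand in capitals. Ifit1 and Ifit3 hold 2 matches each, Ifit2 none before either of its 2 RefSeq starts, Isg15 has 3 that overlap each other, and Gbp7 and Gbp2 have 1 each. For Ifit2 and Ifit3 the start used lies inside the span of the gene given above, so bases before the outermost start were searched in part for Ifit2 and not for Ifit3. Sequence outside these windows was not searched, so Ifit2 may hold ISRE letters elsewhere.
Ifit1 (chr19:34640729-34640888, plus strand): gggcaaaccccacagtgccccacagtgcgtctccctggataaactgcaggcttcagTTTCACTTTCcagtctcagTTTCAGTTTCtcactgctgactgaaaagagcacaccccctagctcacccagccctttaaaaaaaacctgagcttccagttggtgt
Ifit3 (chr19:34583369-34583528, plus strand): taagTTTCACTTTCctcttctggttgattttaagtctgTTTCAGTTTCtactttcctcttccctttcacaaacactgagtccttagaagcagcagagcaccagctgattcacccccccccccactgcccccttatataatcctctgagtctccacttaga
Ifit2 (chr19:34550534-34550693, plus strand): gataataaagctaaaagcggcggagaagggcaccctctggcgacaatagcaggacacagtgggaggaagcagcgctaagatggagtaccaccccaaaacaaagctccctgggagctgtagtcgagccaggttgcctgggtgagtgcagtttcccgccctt
Isg15 (chr4:156200819-156200978, minus strand): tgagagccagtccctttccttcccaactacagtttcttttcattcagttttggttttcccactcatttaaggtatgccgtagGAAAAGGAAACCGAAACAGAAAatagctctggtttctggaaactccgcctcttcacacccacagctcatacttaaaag
Gbp7 (chr3:142530176-142530335, plus strand): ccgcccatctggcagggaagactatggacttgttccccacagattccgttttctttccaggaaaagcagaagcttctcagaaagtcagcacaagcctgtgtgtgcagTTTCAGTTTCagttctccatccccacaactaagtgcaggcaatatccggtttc
Gbp2 (chr3:142620503-142620662, plus strand): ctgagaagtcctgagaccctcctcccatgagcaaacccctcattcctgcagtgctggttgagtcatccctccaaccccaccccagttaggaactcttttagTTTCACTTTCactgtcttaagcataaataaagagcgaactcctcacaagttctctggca

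Among tested members with a window, the 17 with ISRE letters reached a median of 0.35 (log2 fold change), with 10 that rose and 2 that fell, and the 14 without had a median of 0.26, with 9 that rose and 0 that fell. The 12 with GAS letters had a median of 0.053, with 4 that rose and 1 that fell, and the 19 without had a median of 0.53, with 15 that rose and 1 that fell. Over all genes tested that had a window, 27.7% of the 365 with ISRE letters rose, against 24.3% of those without. For GAS letters the shares were 25.5% of 801 genes and 24.3%. These counts are descriptions of letters in a short window, and Gbp2 and Gbp7 each carry 1 ISRE match although Gbp7 was called and Gbp2 was not. Oas1a and Ifih1, both called lower, also hold ISRE letters, as do Bst2, Gbp3 and Igtp, which were not called.

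The signalling chain above these genes was measured with genes from lists of their own. Ifng, which codes for IFN-γ, read 78.7, 88.8 and 95.3 in WT and 179, 138 and 147 in RORγtN275D cells. All RORγtN275D libraries lay above WT (1.75-fold, 0.81 ± 0.12, adjusted p = 3.54e-05). The type I genes Ifnb1, Ifna2 and Ifna4 were at 0 in every WT library and reached at most 2.0 normalized reads in any RORγtN275D library, so no difference was detectable at this depth. Other type I ligand genes were not analysed here.

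All 5 tested receptor chains rose. Ifnar1 read 963, 1007 and 942 in WT and 1432, 1412 and 1447 in RORγtN275D cells, the main rise of the group (1.47-fold, 0.56 ± 0.05, adjusted p = 7.11e-08). Its partner Ifnar2 read 365, 386 and 359 in WT and 424, 428 and 430 in RORγtN275D cells (0.21 ± 0.06, adjusted p = 0.0113). The IFN-γ receptor gene Ifngr1 read 358, 285 and 323 in WT and 456, 420 and 448 in RORγtN275D cells (0.46 ± 0.08, adjusted p = 0.000177). None of these chains overlapped between genotypes. Ifngr2 read 367, 387 and 386 in WT and 521, 511 and 517 in RORγtN275D cells (0.44 ± 0.06, adjusted p = 1.57e-05). Il10rb, a chain shared by the IL-10 and type III interferon receptors, rose by 0.38.

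STAT2 and the kinases did not move together, as 2 of these 4 rose, 1 fell and 1 was not called. Stat2 read 434, 449 and 418 in WT and 593, 603 and 566 in RORγtN275D cells (0.44 ± 0.06, adjusted p = 1.62e-05). All 3 RORγtN275D libraries lay above WT for Stat2. Jak2, the kinase of the IFN-γ receptor, read 7224, 7293 and 6187 in WT and 5184, 5059 and 5458 in RORγtN275D cells (-0.40 ± 0.05, adjusted p = 1.41e-05). Tyk2, the kinase of IFNAR1, read 1359, 1384 and 1480 in WT and 1652, 1604 and 1556 in RORγtN275D cells (0.19 ± 0.05, adjusted p = 0.00335). Jak1, shared by both receptors, read 5465, 5502 and 5074 in WT and 5537, 5426 and 5547 in RORγtN275D cells, and it was not called (adjusted p = 0.380). Thus Irf9, Stat2, Tyk2, Ifnar1 and Ifnar2 of the type I route were higher. Of the IFN-γ route, Ifng, Ifngr1 and Ifngr2 were also higher and Jak2 was lower, and the shared Jak1 was not called.

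**Figure D5:**
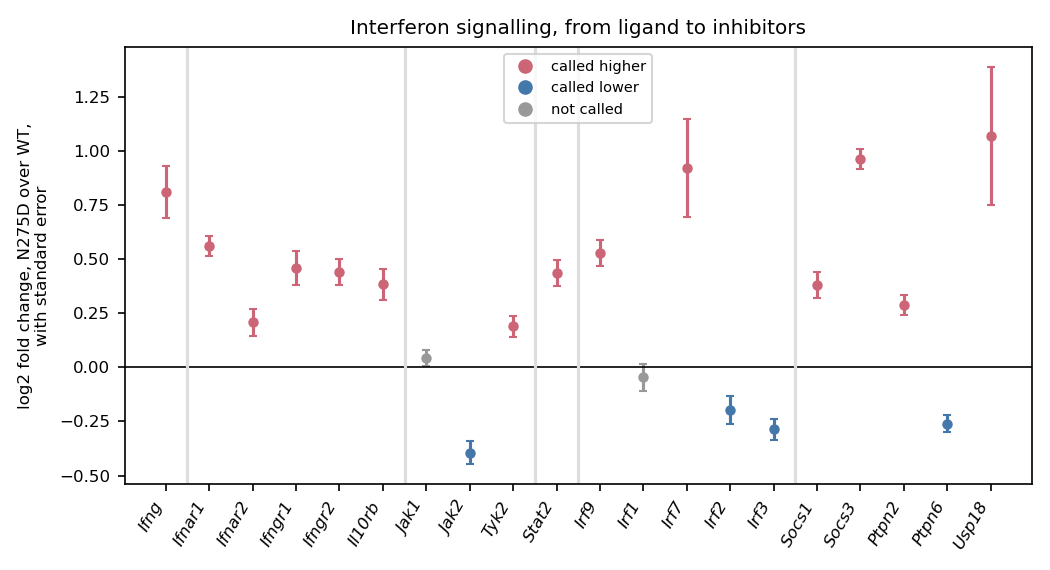
Log2 fold change of RORγtN275D over WT with its standard error (y) for genes of interferon signalling (x), ordered as ligand, receptor chains, kinases, STAT2, interferon regulatory factors and inhibitors, and coloured by call. The 5 receptor chains lie between 0.21 and 0.56, whereas Jak2 lies at -0.40.

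Genes listed as feedback regulators and inhibitors went both ways, with 4 that rose (26.7%), 5 that fell (33.3%) and 6 not called among 15, shares near those of all genes tested. These 15 include enzymes that act on nucleic acids (Trex1, Rnaseh2a, Rnaseh2b, Rnaseh2c and Adar), of which Rnaseh2a rose and Rnaseh2c fell. Usp18 is counted with the members instead. Socs1, which blocks JAK kinases, read 663, 689 and 714 in WT and 943, 820 and 931 in RORγtN275D cells (0.38 ± 0.06, adjusted p = 7.73e-05). Socs3, the feedback inhibitor of IL-6 signalling, rose by 0.96 (adjusted p = 8.67e-11) and the phosphatase gene Ptpn6 fell by 0.26. Irf2, a repressor that competes with IRF1, read 549, 574 and 559 in WT and 455, 489 and 525 in RORγtN275D cells, lower without overlap (-0.20 ± 0.06, adjusted p = 0.0163). The Irf2 call was lost with DESeq2 (adjusted p = 0.0548), without WT replicate 2 (0.0510) and without RORγtN275D replicate 1 (0.102). Among 10 tested genes of nucleic acid sensing upstream of interferon, which are sensors and their adaptors and kinases, 1 rose (10%) and 4 fell (40%). Of all genes tested 24.7% rose and 26.1% fell. The riser was Ddx58, which codes for RIG-I (0.67, adjusted p = 2.14e-05), and Sting1 (-0.37), Myd88 (-0.35) and Ikbke (-0.23) were among those that fell. Irf3, which switches on interferon genes after such sensing, also fell (-0.29, adjusted p = 0.000167).

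The rise was not seen across a wider list of interferon-stimulated genes. Of 91 further such genes that are not members, 84 were in the table and 66 were tested. Among those 66, 16 rose (24.2%), 18 fell (27.3%) and 32 were not called, with a median of -0.0050, close to the 24.7% and 26.1% of all genes tested. Those that rose included the Schlafen gene Slfn1 (1.19, adjusted p = 3.96e-09), Xdh (1.23), the chemokine gene Cxcl10 (0.96), Trim34a (0.65), Gbp8 (0.54) and Trim12c (0.52). Those that fell included Ifi30 (-0.54), Tgtp1 (-0.53), Slfn2 (-0.47), Psmb10 (-0.43), Pml (-0.30), Cd274 (-0.29), Tapbp (-0.28) and Ifi47 (-0.22). The Ifi47 call was lost without RORγtN275D replicate 2 (adjusted p = 0.0582). The difference between the members and this list was not tested, and both lists were drawn up with earlier results of these data known.

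Genes listed as markers of other cell types also differed between genotypes, and whether such cells were present was not tested. Among all 11908 genes tested, 24.7% were called higher and 26.1% lower. The shares called higher were 83.3% for B cell, 100% for natural killer, 40% for macrophage and 16.7% for dendritic cell markers. Of 6 tested B cell markers 5 were called higher, with summed normalized reads of 1126 to 1165 in WT and 1707 to 1781 in RORγtN275D libraries, most of it Ebf1, and with the B cell marker Ms4a1 at 0 in 2 WT libraries and at 3.99, 4.01 and 9.88 in RORγtN275D libraries. All 4 tested genes of the natural killer list, Klrk1, Eomes, Gzma and Prf1, were higher (sums of 157 to 187 and of 281 to 319). The paper measured GZMA protein by flow cytometry in Th17 cells from the colon of colitis recipients, not RNA in cultured cells. Which cells carried these transcripts here was not tested. The 2 genes of that list with a mean under 10, Klrb1c and Klra4, were near the floor in both genotypes. Klrb1c read 2.02, 1.01 and 0 in WT and 0 in all RORγtN275D libraries. Klra4 read 0.998 in RORγtN275D replicate 1 and 0 in every other library. Macrophage markers had 2 called higher (Ccr2 and Cd14) and 1 lower (Adgre1, -1.70) of 5 (sums of 138 to 165 and of 188 to 230). Csf1r and Fcgr1 were between 0 and 3.99 in all libraries. Dendritic cell markers, which include the member Bst2, had 1 called higher of 6 (sums of 1859 to 2020 and of 2043 to 2134). The part of these transcripts in the members' rise was not tested. In bulk RNA, more cells that express a gene and more RNA per cell cannot be told apart.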

How the data were processed

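RNA-seq of 3 WT and 3 RORγtN275D libraries was analysed, and samples were assigned to genotypes from their labels. The methods describe strand-specific mRNA libraries, alignment with STAR (mm10), featureCounts and DESeq2, and the labels name poly-A selection with a NEBNext directional kit. Each deposited signal value is a gene's read number times a scaling factor that the authors set per library. Values were whole multiples of that factor, within 1e-06, for 100% of genes in each of the 6 libraries. The deposited table also holds the authors' log2 fold changes, q-values and group averages, which were not used.

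Values were tested with limma (version 3.58.1, R 4.3.3) on log2(normalized reads + 1) with a trended prior, for 11908 genes with a mean of at least 10 and without a block, with Benjamini-Hochberg adjustment over all of them. Calls needed an adjusted p under 0.05, and 2-fold calls also an absolute log2 fold change of at least 1. In data simulated on these libraries 194 of 196 changed genes tested (absolute log2 fold change 1.5) were called at 2-fold. So was 1 unchanged gene, of 11891 genes tested in all. Calls under 2-fold were not counted in that simulation. The variance between replicates, from the median chi-square of each library pair, was 1.32 to 3.05 times that of counting noise. All 6 libraries entered separately, although repeat preparations of an RNA could also differ that much. Exon lengths for RPKM came from GENCODE M21, and promoters and gene positions from RefSeq (GRCm38.p6).

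Members, role groups, pathway lists and marker lists were chosen with earlier results of these data known. Values in every library were given for the called members of each role group with the largest rise and fall, for members called at 2-fold, for members with a mean under 10 and for the main genes of the pathway. Of the pathway genes, 1 is not reported here. Alternatives were other filters on low values (a mean above 0 or of at least 100), pseudocounts of 0.1 and 10, TMM and quantile scaling, no trend, the replicate number as a block, DESeq2 (version 1.42.0) and edgeR (version 4.0.16) on the whole reads, and each library left out.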

Additional observations from a re-analysis of the deposited data

How the results depend on the processing

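The members' rise kept its direction under every alternative run. The number of members that rose lay between 19 (a minimum mean of 100, which leaves 29 members) and 30 (all genes with a mean above 0, 46 members), with 28 for edgeR and 24 for DESeq2. The 29 members called were all among those called with both pseudocounts, TMM and edgeR. The number that fell was 1 rather than 2 with a mean above 0, with the replicate block and with DESeq2, and 1 to 2 when a library was left out. The members' median was 0.32 with a mean above 0, 0.20 with a minimum of 100 and 0.20 with quantile scaling, and 0.24 to 0.27 when a library was left out. Members called 2-fold higher numbered 0 with a minimum of 100, which removes all 6 from the test. They numbered 4 with quantile scaling and 4 with a pseudocount of 10, where Usp18 stood at 0.63 and Cmpk2 at 0.69. The number was 5 with edgeR and without the trend, 9 with a mean above 0 and 5 to 7 when a library was left out. Over all genes 427 were called at 2-fold, against 703 with a mean above 0, 162 with a minimum of 100 and 259 with a pseudocount of 10. Under quantile scaling Ifit2 (-0.0099), Isg20 (-0.15) and Iigp1 (-0.19) changed sign, all uncalled. Over the 6 fits without a library the uncalled Irf1 (-0.0986 to 0.0046), Isg20 (-0.0911 to 0.1239), Bst2 (-0.0411 to 0.0618), Igtp (-0.0007 to 0.0681) and Iigp1 (-0.1519 to 0.3178) also changed sign. Without the trend Trim25 (adjusted p = 0.0583), Cmpk2 (0.0636), Parp14 (0.0703) and Sp100 (0.0862) lost their calls and Ifitm3 (0.0483) and Ifi27l2a (0.0269) gained one, and with a minimum of 100 Ifi27l2a (0.0473) and Gbp2 (0.0492) gained one. The causes of these shifts were not tested. Replicate numbers did not pair the libraries (correlations of same-numbered deviations -0.0455, 0.0407 and -0.0828), and with the replicate block 27 of the 29 members called kept their call, Trim25 (adjusted p = 0.0605) and Oas1a (0.0517) being lost. Depth limits the 5 members with a mean under 10.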
